A study of Mus musculus with 2 samples.

Results

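The cells described here carried transcripts of *Adgre4*, *Ace* or *Treml4*, genes known from patrolling-type (nonclassical) monocytes. They were chosen by these transcripts: at least 2 unique molecular identifiers (UMIs, 1 per captured RNA molecule) summed over the 3 genes. They also had C1q genes (*C1qa*, *C1qb* and *C1qc*) under 15, *S100a8* and *S100a9* under 100, and *Inhba*, *Cxcl3*, *Thbs1* and *Il1a* under 5 per 10000 UMIs of the cell, and no *Cd3d*, *Cd3e* or *Cd3g* UMI. This gave 208 cells of 13939 barcodes with under 20% mitochondrial UMIs, namely 122 of 7163 in the untreated (UT) library and 86 of 6776 in the BUP library. Expression chose these cells, so the levels of the selecting genes, and differences from cells left out, are given as a description and carry no test.

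Nonclassical monocytes patrol the inner wall of blood vessels, and they form from classical Ly6C-high monocytes under the nuclear receptor NR4A1. ADGRE4 is an adhesion G protein-coupled receptor of myeloid cells, ACE is the angiotensin-converting enzyme, and TREML4 is a receptor of the TREM family. ACE is not restricted to monocytes, since endothelium and some mesenchymal cells also make it. CHIL3 (Ym1), a chitinase-like protein, marks classical monocytes, neutrophils and some macrophages.

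The tumors were subcutaneous CT26 tumors, grown from a mouse colon carcinoma line in BALB/c mice. One group received no treatment, and the other received BUP-Gel, a hydrogel placed at the tumor that releases the local anesthetic bupivacaine. Live cells from 3 tumors per group were sorted into CD45+ (immune) and CD45- cells, mixed at 4 parts to 1 by the labels (the study's methods give another ratio) and run as 1 10x 5′ library per group, with a median of 8430 UMIs per kept cell in UT and 10420 in BUP. Each group is therefore 1 library of pooled animals, the UT tumors received no blank gel, and the effects of treatment, gel, animal and library preparation cannot be told apart. No test between the groups was possible. The intervals below are 95% intervals that cover counting error only.

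Most, but not all, of the selected cells were myeloid. A group of 39 cells carried at least 5 UMIs of the fibroblast collagens *Col1a1*, *Col1a2* and *Col3a1*, and each of the others carried at most 1. These collagen members made up 7 of the 122 UT cells and 32 of the 86 BUP cells. Their median was 294 collagen UMIs per cell in UT and 261 in BUP, and the lowest cells had 7 and 5. Of the others, 168 passed a myeloid gate (at least 3 UMIs over 5 pan-leukocyte genes and at least 3 over *Lyz2*, *Tyrobp*, *Fcer1g*, *Csf1r* and *Cd14*) and are called myeloid members below, 115 in UT and 53 in BUP. The last cell, in BUP, had 1604 UMIs and did not pass the gate. The collagen limit was set after these values had been seen. The BUP share of collagen members was much larger, so comparisons between the libraries are mostly given for the myeloid members. Values over all members are given for some of them, and those not given can differ. The log2 ratio of *Fcgr4*, BUP over UT, was -1.74 over all members and -0.99 in the myeloid members.

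**Figure D1:**
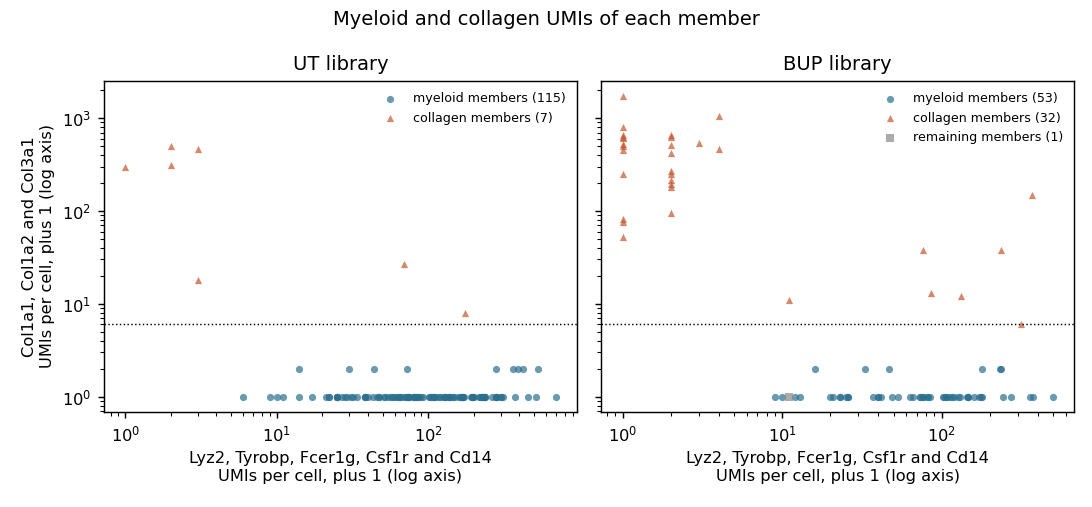
UMIs of 3 collagen genes (vertical, log axis, plus 1) against UMIs of 5 myeloid genes (horizontal, log axis, plus 1) in each of the 208 selected cells, by library. Each point is a cell and the dotted line is the limit of 5 collagen UMIs. The 168 myeloid members lie at 0 or 1 collagen UMI, and the 7 UT and 32 BUP collagen members lie above the line, most with few myeloid UMIs.

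The collagen members were fibroblast-like in their transcripts and mostly entered through *Ace* alone. *Ace* was found in 6 of the 7 UT cells and in all 32 BUP cells, at a summed level of 332 counts per 1000000 UMIs (CPM) in BUP. *Adgre4* was found in 3 cells of each library and *Treml4* in 1 and 3. In BUP *Col1a1* was at 6007 CPM, *Pdgfra*, a receptor of fibroblasts, at 281, the matrix proteoglycan *Lum* at 864 and *Bgn* at 4836. *Csf1r*, the receptor for the monocyte growth factor CSF1, was at 51.8 CPM in UT and 51.2 in BUP, and *Ptprc* (CD45) at 149 and 82.2. They were deep cells, with medians of 15922 and 20112 UMIs, against 5954 and 6435 in the myeloid members. Of them, 2 UT and 7 BUP cells also passed the myeloid gate, and 1 UT and 7 BUP cells had a doublet score in the top 6% of their library. Of the myeloid members 1 in each library did. The part of doublets in these cells was not tested. The CD45- cells also include tumor cells, which were not a comparison class. Whether any collagen members are tumor cells was therefore not tested. Across all kept cells, 1008 in UT and 2107 in BUP reached the collagen limit, and 15 and 56 of these held at least 2 *Ace* UMIs.

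When all 208 cells were summed, the libraries differed mainly in genes of the collagen members. Among 6041 genes with at least 50 UMIs, 1011 (16.7%) were higher by 1.5-fold or more in BUP and 1051 (17.4%) were lower. Among the largest ratios were fibroblast genes such as *Igfbp3* (1.00 against 123 CPM, with 59.5% of the BUP UMIs in 1 cell) and *Bgn* (64.0 against 2918 CPM). All 19 measured core monocyte genes were lower in BUP by that fold. In the myeloid members alone, 3994 genes were measured, 224 (5.61%) were higher and 310 (7.76%) lower, and 4 of the 19 core monocyte genes were lower. The median log2 ratio over the measured genes was -0.04 over all members and -0.03 in the myeloid members.

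In the myeloid members the 3 selecting genes differed between the libraries by less than their counting intervals. *Adgre4* (chromosome 17, 56056984 to 56175274, plus strand, GRCm39) was at 200 CPM in UT (171 to 233) and 215 in BUP (173 to 264). *Ace* (chromosome 11, 105858469 to 105880790, plus strand) was at 295 CPM (259 to 334) and 251 (205 to 303). *Treml4* (chromosome 17, 48571323 to 48582388, plus strand) was at 161 CPM (135 to 190) and 151 (117 to 193). Which of the 3 genes a cell held is set in part by the selection, which leaves out cells with 1 UMI. Of the myeloid members, 33 UT cells (28.7%) and 19 BUP cells (35.8%) held all 3, and the pairs *Adgre4* with *Ace*, *Ace* with *Treml4* and *Adgre4* with *Treml4* stood alone in 19, 18 and 15 UT cells and 11, 8 and 5 BUP cells. Cells with a single one of them numbered 12 and 4 for *Ace*, 9 and 2 for *Adgre4*, and 9 and 4 for *Treml4*. The median cell had 4 UMIs of the 3 genes in each library, and the highest had 14 in UT and 18 in BUP.

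Just outside the limit, 101 UT and 60 BUP cells met every other condition with 1 UMI of the 3 genes, and 89 and 45 of these passed the myeloid gate. Just inside, 26 and 25 cells had exactly 2 UMIs, of which 24 and 20 passed it. Of the 322 UT and 314 BUP cells with 2 or more UMIs of the 3 genes, the limit on *Inhba*, *Cxcl3*, *Thbs1* and *Il1a* was missed by 131 and 163, the C1q limit by 56 and 73, the *S100a8* and *S100a9* limit by 33 and 74, and a CD3 UMI was held by 49 and 80. RNA of the 3 genes was therefore also found in cells that the limits leave out. The libraries shared 76 barcodes, and none of these was a member.

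*Chil3* (chromosome 3, 106054870 to 106074880, minus strand), listed as a marker but not used to select, was found in few members. In UT it was at 124 CPM (102 to 150) with a UMI in 27 of 115 cells (23.5%, 16.1% to 32.3%), and in BUP at 52.0 CPM (32.6 to 78.8) in 4 of 53 cells (7.55%, 2.09% to 18.2%). In T cells with at least 2 CD3 UMIs, which serve below as the background of free RNA, it was found in 0.474% and 0.549% of cells. A single cell held 50% of its BUP UMIs. In cells with *Ly6c2* that met the same limits but had fewer than 2 UMIs of the 3 selecting genes (Ly6c2 comparison cells, 250 in UT and 80 in BUP), *Chil3* was at 43.6 and 64.3 CPM.

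Genes of the nonclassical program that were not used in the selection were also high in the myeloid members. Of 20 measured nonclassical genes, 14 were at least 1.5-fold above the Ly6c2 comparison cells in both libraries and none was below, where 7.73% of 4359 measured genes were higher and 7.50% lower. The medians of the 20 log2 ratios were 1.32 in UT and 1.19 in BUP, against -0.03 and -0.04 over all measured genes. Classical monocyte genes were not lower as a set. Of 21 measured, 4 were higher (*Plac8*, *Mgst1*, *Hp* and *Irf8*) and 4 lower (*Ly6c1*, *Ly6c2*, *Fn1* and *S100a6*), beside the same 7.73% and 7.50%. Their median log2 ratios were 0.33 in UT and -0.11 in BUP, and *Ly6c2* itself chose the comparison cells. *Nr4a1*, the regulator of these cells, was at 712 CPM in UT and 683 in BUP, against 184 and 237 in Ly6c2 cells and 38.6 and 51.5 in C1q cells. *Pou2f2*, a POU-domain transcription factor, was at 138 and 109 CPM against 13.7 and 43.5. *Itgal*, the alpha chain of the integrin LFA-1 that binds vessel walls, was at 240 and 232 CPM against 56.3 and 37.3. T cells also carry *Itgal*, with a UMI in 75.5% of UT and 65.0% of BUP cells, against 73.0% and 69.8% of the members. *Itga4*, the alpha chain of VLA-4, was at 340 and 317 CPM against 106 and 126. *Spn* (CD43), a surface protein used to sort nonclassical monocytes, was at 63.9 and 63.8 CPM against 22.5 and 24.9, but T cells carry it too, at 108 and 92.7 CPM. *Ear2*, an eosinophil-type ribonuclease, was at 76.9 and 37.8 CPM and at most 3.73 in each comparison class.

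The label of patrolling-type monocytes was not met by every marker. *Ccr2*, a gene of classical monocytes, had a UMI in 73.9% of UT and 62.3% of BUP members, against 23.4% and 16.6% of T cells. The fractalkine receptor *Cx3cr1*, a standard marker of patrolling monocytes, had a UMI in 34.8% and 26.4%, against 16.3% and 18.9% of T cells. It was at 87.6 CPM in UT and 68.6 in BUP, against 10.2 and 13.5 in Ly6c2 cells. C1q cells had 50.3 and 96.1 CPM, so in BUP the C1q cells were above the members. *Cd300e* and *Fabp4*, also known from nonclassical monocytes, had 17 UMIs each in UT and 8 and 3 in BUP. A smaller set of genes that the selection does not name was highest in the members. This is a description, since the same cells were chosen by expression and the comparison classes by its absence. *Cyria*, a regulator of the actin-related RAC pathway, was at 172 and 147 CPM and had a UMI in 66.1% of UT members. *Gngt2*, a G protein gamma subunit, was at 446 and 416 CPM and present in 88.7% of UT members against 16.4% of UT T cells. *Grk3*, a kinase that turns off G protein-coupled receptors, was at 130 and 123 CPM, *Abi3*, an actin regulator, at 182 and 130, and *Plac8*, a gene abundant in blood monocytes, at 2347 and 2178. The highest comparison class had means of 23.7 CPM for *Cyria*, 90.9 for *Gngt2*, 21.4 for *Grk3*, 40.3 for *Abi3* and 746 for *Plac8*. The collagen members are not among these classes, and of their 32 BUP cells 31 had a *Plac8* UMI and 18 a *Gngt2* UMI. *Plet1* ranked first by this ratio, but its UMIs came from 2.61% of the UT and 5.66% of the BUP cells.

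**Figure D2:**
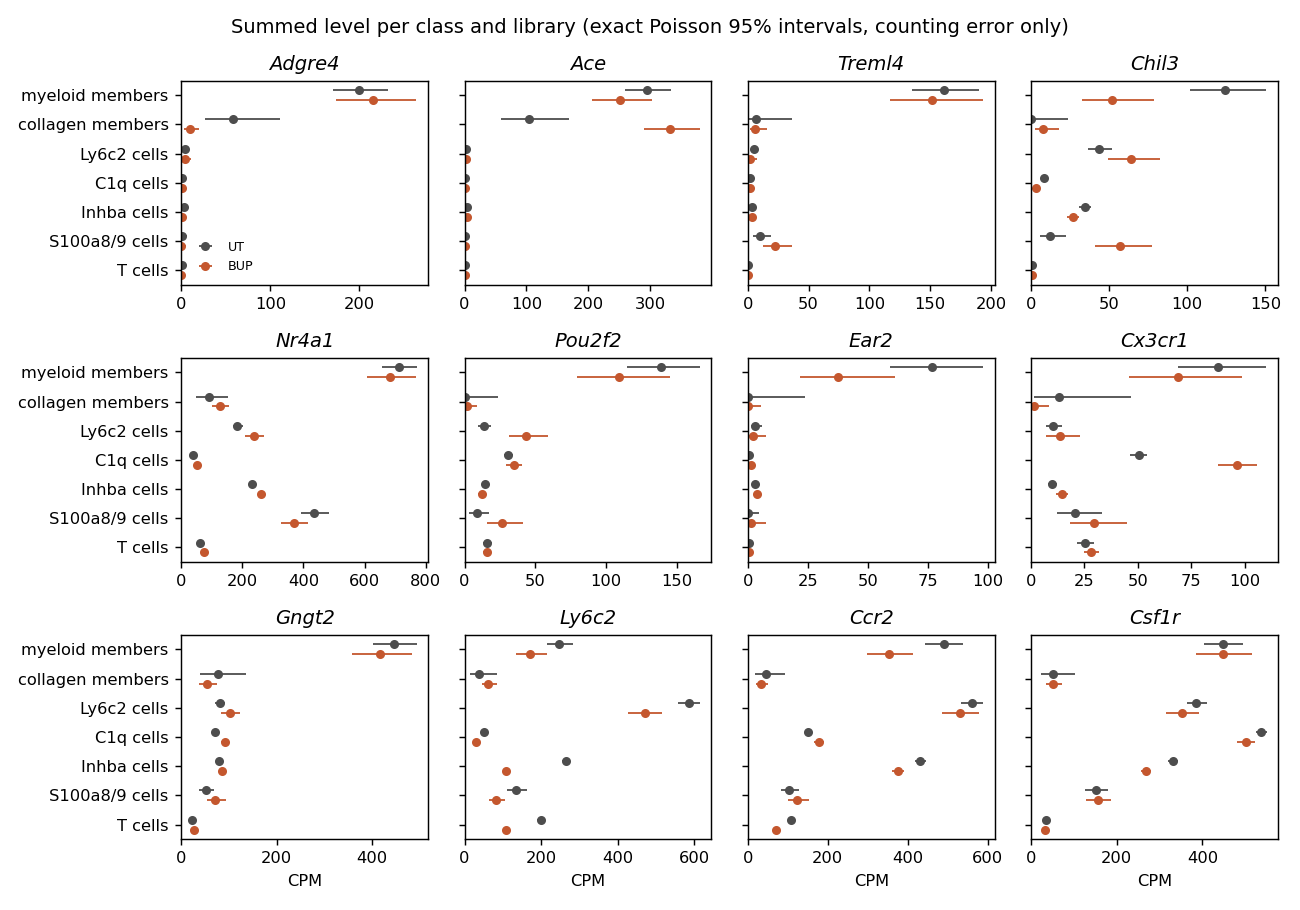
Summed level of 12 genes (CPM, horizontal) in 7 classes of cells, UT in grey and BUP in orange, with exact Poisson 95% intervals that cover counting error only. *Adgre4*, *Ace* and *Treml4* were used in the selection. *Nr4a1*, *Pou2f2*, *Ear2* and *Gngt2* were highest in the myeloid members, *Ly6c2* in the Ly6c2 cells used for comparison, and *Cx3cr1* was shared with C1q cells.

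Macrophage genes were low in the myeloid members. Of 12 measured genes of the C1q and resident macrophage list, 8 were at least 1.5-fold below the Ly6c2 cells in both libraries and none was above, beside 7.50% and 7.73% of all measured genes. *Trem2*, a lipid-sensing receptor of tumor macrophages, was at 73.4 and 73.3 CPM against 491 and 406 in C1q cells. *Mrc1* (CD206) was at 101 and 63.8 CPM against 1167 and 852 in C1q cells, and *Ms4a7* at 40.2 and 54.4 against 586 and 561. The core monocyte genes were near the level of the Ly6c2 cells, with 2 of 19 higher and 1 lower, beside the 7.73% and 7.50% of all measured genes. Part of this likeness was set by the selection. The myeloid gate used *Lyz2* and *Csf1r*, which are in this list, and the Ly6c2 cells needed a *Csf1r* UMI. *Csf1r* was at 447 CPM in each library, and *Spi1* (PU.1), the master regulator of myeloid cells, at 689 and 641. Of 33 measured transcription factor genes, 8 were higher than in Ly6c2 cells in both libraries and none lower, beside the same 7.73% and 7.50%. Besides *Nr4a1* and *Pou2f2* these included *Klf2*, at 1303 and 1282 CPM against 563 and 547, and the stress-induced *Atf3*, at 1498 and 1766 against 662 and 780. The others were *Nr4a2* and *Nr4a3*, of the same family as *Nr4a1*, and *Irf8* and *Rela*.

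The myeloid members ranged from cells with no Ly6C transcript to cells with many. *Ly6c1* and *Ly6c2* together were at 0 in 58 UT cells (50.4%, 41.0% to 59.9%) and 30 BUP cells (56.6%, 42.3% to 70.2%). They were above 0 and under 10 per 10000 UMIs in 41 and 18 cells, and at 10 or more in 16 (13.9%, 8.17% to 21.6%) and 5 (9.43%, 3.13% to 20.7%). A cut of a continuous level is a range and not a type: 27 UT and 7 BUP cells lay between 5 and 20 per 10000. A cell with fewer UMIs is more often at 0, and the median depth was 4371 UMIs at 0, 6761 in the middle and 7727 at 10 or more in UT, and 4369, 8796 and 13304 in BUP. T cells carry *Ly6c2* too, with a UMI in 40.4% and 31.8% of cells, against 37.4% and 30.2% of the members.

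Along these ranges *Nr4a1* was lower and several classical genes higher in UT. From no Ly6C to high Ly6C *Nr4a1* was at 1032, 532 and 390 CPM. *Pou2f2* was at 202, 94.4 and 94.2, while *Itgal*, at 294, 183 and 249 CPM, and *Fcgr4*, at 251, 338 and 222, did not fall at each step. The selecting genes *Adgre4*, at 262, 177 and 108 CPM, and *Ace*, at 432, 220 and 148, are no evidence of an order, since a member needs 2 of their UMIs at any depth and the depth was higher at high Ly6C. *Ccr2*, the receptor that draws classical monocytes out of bone marrow, went the other way, at 340, 564 and 666 CPM. *Chil3* was at 100 CPM in the middle and 296 at the high end. *Ms4a4c*, a membrane gene of monocytes, was at 222, 283 and 989 CPM. In BUP the ends of the range had the same order for *Nr4a1* (692 and 418 CPM), *Ccr2* (326 and 596) and *Ms4a4c* (160 and 1062). The middle BUP range, of 18 cells, lay between the ends for *Ms4a4c*, at 355 CPM. It did not for *Nr4a1*, at 764, or *Ccr2*, at 296. The high BUP range held only 5 cells, with 1 UMI of *Chil3* and none of *Cx3cr1*. *Treml4*, the third selecting gene, was at 182, 143 and 155 CPM in UT, and *Cx3cr1* was at 86.5, 88.7 and 87.5. Class II genes were lowest in the UT cells with most Ly6C, where *H2-Aa* was at 1494 CPM against 5233 in cells without Ly6C. In BUP the same ranges had 5328 and 5075 CPM.

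**Figure D3:**
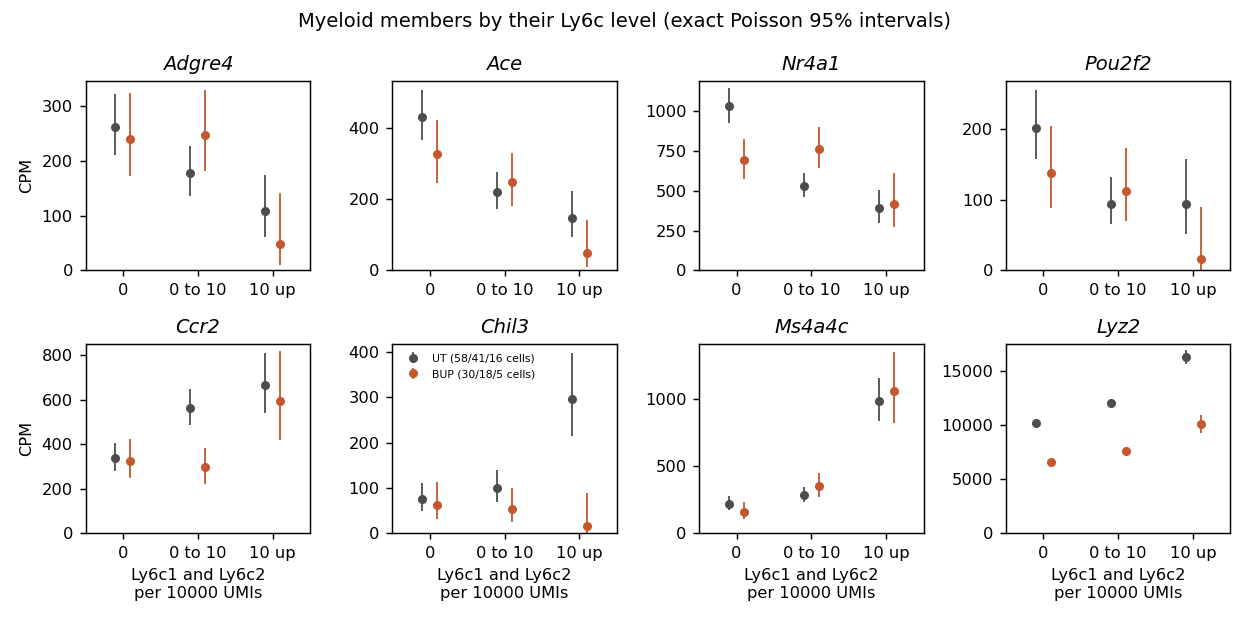
Summed level (CPM, vertical) of 8 genes in myeloid members that had 0, under 10, or 10 or more Ly6c1 and Ly6c2 UMIs per 10000, UT in grey and BUP in orange, with exact Poisson 95% intervals. *Adgre4* and *Ace* were used in the selection. From the first to the last range *Nr4a1* was lower in UT and *Ccr2*, *Chil3*, *Ms4a4c* and *Lyz2* higher. The BUP points of the last range rest on 5 cells.

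Antigen presentation genes varied widely from cell to cell. *H2-Aa*, a class II chain, ranged in UT from 0 through a median of 6.64 to 230 per 10000 UMIs, and in BUP from 0 through 9.14 to 226. *Cd74*, the invariant chain, had medians of 35.6 and 45.5 per 10000 with highest cells at 407 and 294. Some members carried genes of other lineages. At least 5 UMIs of the plasmacytoid dendritic cell list were found in 15 UT and 10 BUP cells, and of the neutrophil list in 7 and 8. The plasmacytoid list holds *Bst2*, which is also in the type I interferon list. Its 2 measured genes had median log2 ratios over Ly6c2 cells of -0.72 in UT and -0.66 in BUP. At least 5 UMIs of the 7 conventional type 1 dendritic cell (cDC1) genes were found in 3 UT and 4 BUP cells, with up to 100 and 94 UMIs in a cell, and the defining genes *Xcr1* and *Clec9a* had a UMI in 3 and 3 UT and in 3 and 4 BUP cells. Over the 9 NK genes, 1 BUP cell held 515 of 549 UMIs. In UT, 1 cell held 78 of 86 erythroid UMIs, and 1 held 110 of 135 UMIs of the migratory dendritic cell list. *Col1a1* was at 0 UMIs in the UT myeloid members, which allows up to 3.55 CPM, and at 1 UMI in BUP.

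Myeloid members formed a small share of the leukocyte-gated cells, and the share was lower in BUP. They were 115 of 5645 leukocyte-gated cells in UT (2.04%, 1.68% to 2.44%) and 53 of 4092 in BUP (1.30%, 0.972% to 1.69%), and the intervals overlap only at their ends. Of myeloid-gated cells they were 2.69% (2.22% to 3.22%) in UT and 2.07% (1.55% to 2.70%) in BUP, and these intervals overlap. The leukocyte gate also held collagen members, 2 in UT and 21 in BUP, so its cells may not all be leukocytes. With these added, the shares of leukocyte-gated cells were 117 cells in UT (2.07%, 1.72% to 2.48%) and 74 in BUP (1.81%, 1.42% to 2.27%). How many other collagen cells passed this gate was not counted, and their weight in these shares was not tested. The mixing of sorted CD45+ and CD45- cells sets any share of all barcodes, which was 1.61% (1.33% to 1.92%) in UT and 0.782% (0.586% to 1.02%) in BUP. Shares also fall when other cells are more numerous, and fewer monocytes and more of the others cannot be told apart here.

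Between the libraries, of 23 measured nonclassical genes, 5 were lower in BUP by 1.5-fold or more (*Eno3*, *Cd300ld*, *Ear2*, *Clec4a1* and *Clec4a3*) and none higher, beside 7.76% and 5.61% of all measured genes. Their median log2 ratio was -0.13 and the summed level was 8712 CPM in UT and 7907 in BUP, a log2 ratio of -0.14 that lay between -0.16 and 0.07 over the alternatives. The list sum in the Ly6c2 cells was 4182 and 4679 CPM. *Nr4a1* had a log2 ratio of -0.06 (-0.27 to 0.14), *Itgal* of -0.05 (-0.41 to 0.30), *Gngt2* of -0.10 (-0.37 to 0.16) and *Plac8* of -0.11 (-0.22 to 0.01). *Ear2* had 65 UMIs in UT and 16 in BUP, and *Eno3*, a muscle enolase, 60 and 9, but T cells carried *Eno3* at 99.9 and 88.5 CPM, above the members.

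Core monocyte genes were lower in BUP in sum but mostly under 1.5-fold. The 19 genes summed to 26988 CPM in UT and 20745 in BUP (log2 ratio -0.38, -0.42 to -0.34), where C1q cells had -0.12 and Ly6c2 cells -0.06. Much of this sum was *Lyz2* (lysozyme), at 12075 CPM in UT and 7550 in BUP (log2 -0.68, -0.74 to -0.62). Per cell its median was 104 and 65.1 per 10000 UMIs, the highest cells were at 409 and 272, and the top cell held 5.73% and 12% of its UMIs. Over members with *Csf1r* and no dendritic gene (*Xcr1*, *Clec9a* or *Flt3*) its log2 ratio was -0.41. In Ly6c2 cells *Lyz2* was at 13497 and 12963 CPM. In T cells *Lyz2* was also less frequent in BUP, with a UMI in 81.2% of UT and 53.6% of BUP cells, and in 43.9% and 25.4% when thinned to 2000 UMIs. *Fcgr4*, the activating Fc receptor of nonclassical monocytes, was at 282 and 142 CPM (log2 -0.99, -1.42 to -0.58), but its log2 ratio was -0.18 when each cell was thinned to 2000 UMIs. *Fcgr4* was also lower in Inhba cells, at 215 and 114 CPM, and in T cells, at 26.2 and 14.8. *Fcgr3* was at 361 and 208 CPM. *Csf1r*, by contrast, had a log2 ratio of -0.00 (-0.26 to 0.25), and *Spi1* of -0.10.

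Interferon gamma response genes were lower in BUP. Of 17 measured genes, 8 were lower (*Gbp4*, *Irf1*, *Cxcl9*, *Cxcl10*, *Igtp*, *Irgm1*, *Socs1* and *Fcgr4*) and 2 higher (*Cxcl11* and *Ciita*), beside 7.76% and 5.61% of all measured genes, with a median log2 ratio of -0.57 beside -0.03 over all measured genes. *Gbp4*, a guanylate-binding protein, was at 128 and 54.4 CPM (log2 -1.23, -1.95 to -0.57), and *Irf1*, the transcription factor of the pathway, at 453 and 272 (log2 -0.74, -1.05 to -0.43). No cell held over 13.9% of the UMIs of either gene in a library, but the highest cell of each gene held 66.7% of the BUP UMIs of *Cxcl9*, 45.3% of those of *Cxcl10* and 76.9% of those of *Cxcl11*. The list sum had a log2 ratio of -0.47 (-0.58 to -0.36), and of -0.10 when 3 UMIs of the selecting genes were required. The same sum was also lower in the other classes, by -0.55 in Inhba cells, -0.35 in C1q cells, -0.33 in Ly6c2 cells and -0.34 in T cells, so a lower level in BUP was not limited to the monocytes. The 19 measured type I interferon genes had 4 higher in BUP (*Ifit2*, *Isg15*, *Ifi44* and *Ifi204*) and none lower, beside 5.61% and 7.76% of all measured genes, and their sum had a log2 ratio of 0.31 (0.21 to 0.40). With *Treml4* left out of the selection that sum had a log2 ratio of -0.16. Single cells held 22.4% and 23.7% of the *Isg15* UMIs.

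Class II antigen presentation, taken over all myeloid members, was slightly higher in BUP. The sum over the list was 23424 CPM in UT and 27657 in BUP (log2 0.24, 0.21 to 0.27), with *H2-DMb1*, a peptide-loading chain, and the class II regulator *Ciita* past 1.5-fold. *H2-Aa* was at 4525 and 5959 CPM and *Cd74* at 9481 and 10724. The direction changed over a narrower set: in members with *Csf1r* and no *Xcr1*, *Clec9a* or *Flt3* UMI, 97 in UT and 44 in BUP, the log2 ratio of the sum was -0.18. The share of members with an *H2-Aa* UMI was 66.1% (56.7% to 74.7%) in UT and 64.2% (49.8% to 76.9%) in BUP, against 24.2% and 15.3% of T cells. *Cst3*, a protease inhibitor abundant in dendritic cells and monocytes, was at 6155 and 9934 CPM, but single cells held 18.6% and 29.1% of its UMIs, and its log2 ratio of 0.69 was 0.02 in the same narrower set.

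Over all 24 measured chemokine and cytokine genes, 8 were lower in BUP and 3 higher, beside 7.76% and 5.61% of all measured genes, and the sum had a log2 ratio of -0.05, which lay between -0.18 and 0.24 over the alternatives. *Ccl2*, the ligand of CCR2, was at 1289 CPM in UT and 553 in BUP (log2 -1.22, -1.43 to -1.01), with a UMI in 63.5% and 49.1% of cells against 31.8% and 19.2% of T cells. *Ccl7*, a second CCR2 ligand, was at 514 and 255 CPM, but with 22.4% and 41.7% of its UMIs in a single cell. *Ccl6* was at 1189 and 792 CPM and *Ccl9* at 312 and 208. Thinned to 2000 UMIs per cell, the log2 ratio of *Ccl2* was -0.67. In Ly6c2 cells *Ccl2* was at 2821 and 3122 CPM, and in C1q cells at 4299 and 3026. The interleukin *Il1b* was at 2260 and 2114 CPM and *Tnf* at 396 and 333, and the intervals of their log2 ratios hold 0.

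**Figure D4:**
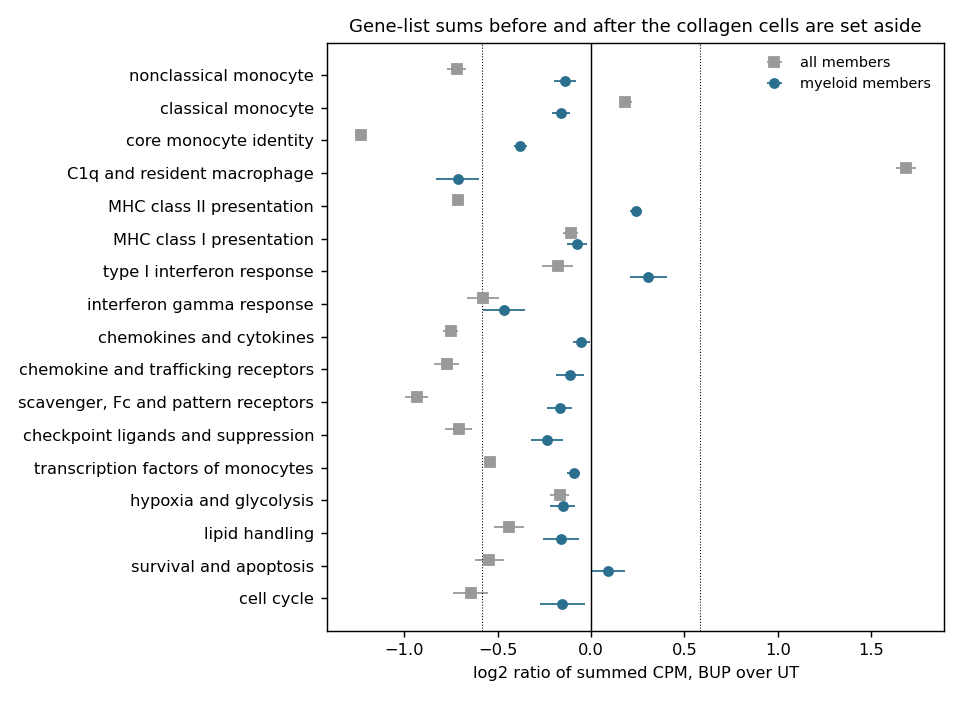
Log2 ratio (BUP over UT, horizontal) of the summed level of 17 gene lists, over all 208 selected cells (grey squares) and over the 168 myeloid members (blue circles), with exact 95% intervals. Dotted lines mark 1.5-fold. The C1q and resident macrophage list was 1.69 over all cells and -0.71 over myeloid members, and 15 of the 17 myeloid sums lie between -0.40 and 0.40.

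The list of C1q and resident macrophage genes changed direction with the collagen members. Its sum over all 208 cells had a log2 ratio of 1.69, led by *Spp1* (osteopontin), which was at 15087 CPM in the BUP collagen members. In myeloid members the ratio was -0.71 (-0.83 to -0.60). *Spp1* itself was at 1129 and 433 CPM there, but 1 UT cell held 43.3% of it, and a UMI was found in 56.5% and 50.9% of cells, below the 84.7% and 82.9% of T cells. The highest UT cell had 215 *Spp1* UMIs per 10000.

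Many of the largest ratios in the myeloid members came from single cells. The 12 genes with the highest ratio included *Gzma*, *Gzmb* and *Ccl5*, products of cytotoxic lymphocytes, and 99.7% of *Gzma*, 94.9% of *Gzmb* and 85.7% of *Ccl5* UMIs in BUP were in 1 cell each. Among the 12 lowest were *Gzmf* and *Gzmd*, with 86.4% and 87.5% of the UT UMIs in a single cell, and *Ccl12*, with 75.9%. The part of lymphocyte RNA in these cells was not tested. A second ranking kept genes of which no cell held more than 20% of the UMIs in either library.

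Higher in BUP among these broadly carried genes was *Rgs1*, a brake on G protein signaling from chemokine receptors. It was at 428 CPM in UT and 986 in BUP (log2 1.20, 1.00 to 1.41), with a UMI in 63.5% and 73.6% of members. Its per-cell median was 2.18 and 5.14 per 10000 UMIs, and the ranges of the cells overlap, from 0 to 33.7 and from 0 to 58.9. T cells carried *Rgs1* as well, at 891 and 810 CPM, and in Ly6c2 cells it was at 725 and 787. *Nfkbid*, a nuclear regulator of NF-kappaB, was at 56.8 and 142 CPM (log2 1.32, 0.75 to 1.90) and had a UMI in 25.2% and 49.1% of members. Ly6c2 cells had 42.9 and 71.5 CPM of it. *Rapgef6*, an exchange factor of small GTPases, was at 67.5 and 135 CPM, and the amino acid transporter *Slc38a1* at 128 and 232. *Nr4a3*, a relative of *Nr4a1*, was at 34.3 and 135 CPM, with 42.1% of its BUP UMIs in 1 cell.

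Lower in BUP were *Ltbr*, the lymphotoxin beta receptor, at 109 and 44.9 CPM (log2 -1.28, -2.07 to -0.55), and *C5ar1*, the receptor for complement C5a, at 317 and 161 (log2 -0.98, -1.39 to -0.59). *Ltbr* was at 69.3 and 69.5 CPM in Ly6c2 cells. *C5ar1* was also lower in other classes, at 502 and 351 CPM in Inhba cells and 345 and 266 in C1q cells. In T cells it was at 35.6 and 23.1 CPM, and in Ly6c2 cells at 280 and 258. The kinase *Sgk3* was at 104 and 49.7 CPM and *Cd300ld*, a receptor of the CD300 family, at 109 and 56.8. *Rap1gap2*, a regulator of RAP1 and so of integrins, was at 120 and 61.5 CPM, against 20.7 and 8.30 in Ly6c2 cells. When each cell was thinned to 2000 UMIs, so that deep cells no longer weigh more, the log2 ratios were -1.06 for *Ltbr*, -1.21 for *Gbp4*, -0.67 for *Lyz2*, 0.81 for *Rgs1* and 0.79 for *Nfkbid*. That of *C5ar1* was -0.21.

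**Figure D5:**
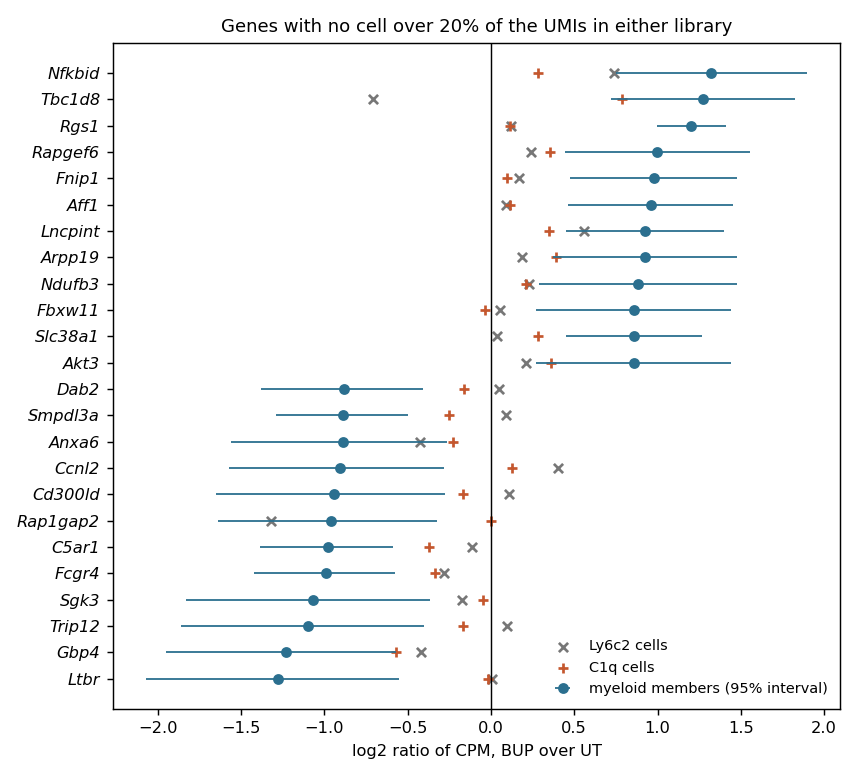
Log2 ratio (BUP over UT, horizontal) of the 24 genes with the largest and smallest ratios in the myeloid members of which no cell held over 20% of the UMIs, with exact 95% intervals (blue), and the ratios of the same genes in Ly6c2 cells (crosses) and C1q cells (plus signs). *Rgs1* was at 1.20 in the members, 0.12 in Ly6c2 cells and 0.11 in C1q cells.

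Of 10 measured genes that the study used for myeloid states, 2 were lower in BUP by 1.5-fold or more (*Arg1* and *Mrc1*) and none higher, beside 7.76% and 5.61% of all measured genes, and the sum of the list had a log2 ratio of -0.28 (-0.38 to -0.19). *Cd86*, a costimulatory ligand, was at 386 CPM in UT and 419 in BUP (log2 0.12, -0.15 to 0.39). *Arg1* (arginase) was at 205 and 87.5 CPM, but 63.6% and 78.4% of its UMIs were in a single cell of each library, and a UMI was found in 18.3% and 11.3% of members against 14.8% and 7.68% of T cells. *Mrc1* was at 101 and 63.8 CPM, with 40% and 55.6% of its UMIs in a single cell, and was found in 13.9% and 11.3% of members, against 12.8% and 6.81% of T cells. *Nos2* had 8 UMIs in 1 UT cell and 2 UMIs in 1 BUP cell. The checkpoint ligand *Cd274* (PD-L1) was at 435 and 350 CPM (log2 -0.32, -0.60 to -0.04). The 26 genes of acetylcholine receptors and turnover held 4 UMIs in UT and 16 in BUP over all myeloid members, and 23 of them were at 0. The 14 sodium channel genes, among which are the targets of bupivacaine, held 15 and 2 UMIs, and 13 of them were at 0.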

How the data were processed

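Each library was aligned and counted by the authors with Cell Ranger (8.0.1 in the submitters' processing notes) on GRCm39, and the deposited values are UMI counts per gene and barcode, whole numbers without normalization. Barcodes with mitochondrial UMIs under 20% were kept. Members, gates, gene lists and tests were chosen with earlier results of these data known. Cells were thresholded one by one and not clustered. Comparison classes kept the other limits, had fewer than 2 UMIs of the selecting genes, and passed the limit they are named for (C1q, *Inhba* set, *S100a8* and *S100a9*), at least 2 *Ly6c2* and 1 *Csf1r* UMIs, or at least 2 CD3 UMIs (T cells). UMIs were summed per class and library and divided by the class total (CPM). CPM carry exact Poisson intervals, shares exact Clopper-Pearson intervals, and log2 ratios exact intervals conditional on the summed counts. With 1 library per group no p-value is given. A count of 0 was taken to allow 3 counts.

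A gene was measured with at least 50 UMIs over both libraries (for comparisons of classes, over both classes in each library) and called past 1.5-fold. Named genes were the 12 highest and 12 lowest ratios with at least 100 UMIs, at least 100 CPM in 1 library and an interval without 0 (for the second ranking, chosen after values were seen, no cell over 20%), the 20 genes highest over any comparison class (10 CPM added), and the gene lists. Scrublet (scanpy 1.11.5) scored doublets, and no cell was removed for its score. Scripts ran in Python 3.11.15 (scipy 1.17.1, numpy 2.4.6). On simulated Poisson sums, with true changes larger than 1.5-fold and no variation between cells, the direction was right for 100% of changed genes. Smaller changes, and genes with most UMIs in 1 cell, were not simulated. Gene positions are from the GENCODE annotation of GRCm39. Some genes named by these rules are not reported here.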

Additional observations from a re-analysis of the deposited data

How the results depend on the processing

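No paired analysis was possible because each group has 1 library. Shares of leukocyte-gated cells over all members were 1.65% (UT) and 1.25% (BUP) with 3 or more UMIs of the selecting genes, 1.42% and 0.953% without *Ace* in the selection, 1.70% and 1.27% of all kept barcodes, and 2.73% and 2.34% of myeloid-gated ones. The UT share was 1.61% without *Adgre4* and 1.68% without *Treml4*, and the BUP share 1.27% with *Csf1r* and no dendritic gene and 1.30% over myeloid members. Genes higher and lower in BUP over all members numbered 367 and 430 with *Csf1r* and no dendritic gene, 224 and 336 without *Ace*, 529 and 654 at a minimum of 100 UMIs, and 224 and 310 over myeloid members, an alternative added after the data were seen. Within myeloid members they were 73 and 114 at a minimum of 100 UMIs, and the other alternatives left both counts within 1.5 times.

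Of 18 list sums in myeloid members, none of them but the C1q and resident macrophage sum past 1.5-fold, 10 changed sign under at least 1 alternative, among them nonclassical (-0.16 to 0.07), class II (-0.18 to 0.32) and type I interferon (-0.16 to 0.40). The interferon gamma (-0.53 to -0.10), core monocyte (-0.45 to -0.20) and C1q and resident macrophage (-1.10 to -0.38) sums kept theirs under all 11. Ratios past 1.5-fold changed sign as follows. Over all members, the C1q and resident macrophage sum was -0.83 without *Ace* and -0.71 over myeloid members, the class II sum 0.35 and 0.24, and *Col15a1* -1.08 without *Ace*. In myeloid members, *Gzma* was -3.12 with 3 or more UMIs, -3.37 with 2 or more per 10000, -3.67 with *Csf1r* and no dendritic gene, -3.33 without *Treml4* and -3.50 without the highest doublet scores, and *Gzmb* -1.63, -1.11, -2.13, -1.22 and -1.31 under the same settings and -0.038 as mean log-normalized expression. *Ifitm1* was 0.59 with 2 or more per 10000, 0.12 with *Csf1r* and no dendritic gene and 0.050 as mean log-normalized expression, *AW112010* -0.20 without *Treml4*, *Ccl5* -0.76 without *Adgre4*, *Cxcl9* 0.094 with 2 or more per 10000 and *Tbc1d8* -0.079 when thinned. *Nos2*, with 10 UMIs, was 0.0058 as mean log-normalized expression and 1.11 when thinned. *Gzma* and *Gzmb* rest on 1 BUP cell each, and for the rest the cause was not tested. With 53 BUP cells, a gene near 50 UMIs has an interval wider than 1 on the log2 scale.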
